A study of Mus musculus with 22 samples.

Results

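Egr1, Egr2, Egr3, Egr4, Nr4a1, Nr4a2, Nr4a3, Npas4 and Ier2 are 9 genes for transcription regulators that nerve cells induce within minutes to hours of strong activity. They were chosen by name, as the Egr and Nr4a families with Npas4 and Ier2, and all 9 were among the 40714 genes tested of the 53379 in the count table. The mRNAseq libraries come from nuclei of the hippocampus taken 24 h after kainate or saline. Sample names and the study's methods give the left side, opposite to the injection, and the libraries are taken as left here. The extraction note in the labels names the right. All mice were adult male C57/BL6N, obtained at an age of 8 weeks and kept for 4 more weeks before use. Kainate mice received 70 nl of 20 mM kainate above the right hippocampus and were kept only if a convulsive seizure of Racine grade 5 followed within 4 h, and sham mice received 0.9% NaCl at the same place. Kainate is an agonist of glutamate receptors, and this injection sets off a status epilepticus. Each treatment had 8 mice in 3 pools, 1 pool of 4 mice and 2 pools of 2. The nuclei of a pool were sorted by NeuN, the protein of the Rbfox3 gene, into NeuN+ nuclei, called neurons here, and NeuN- nuclei, called glia. The glia therefore include every kind of cell whose nucleus lacked NeuN, and a few neurons may lack it too. Every group had 3 libraries except sham glia, which had 2 (replicates 1 and 3).

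The EGR proteins are zinc finger factors that bind GC-rich sites, and NAB corepressors restrain them. The NR4A proteins are orphan nuclear receptors that act without a known natural ligand and are controlled mainly through how much of them is made. NPAS4 is a factor that is largely restricted to neurons, pairs with ARNT2 or ARNT and is induced by calcium entry. IER2 is a small nuclear protein that is induced by growth factors in many kinds of cells. The genes are switched on without new protein synthesis, through CREB at cAMP response elements, through SRF with ternary complex factors at CArG boxes, and through MEF2.

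The promoters of 6 of the 9 genes, Egr2, Egr4, Nr4a1, Nr4a2, Nr4a3 and Npas4, were read from RefSeq (GRCm38.p6) as windows of 250 bases before to 50 after the start. Egr2 had 5 windows and the others 1 each, and the Egr2 window nearest the start of its principal GENCODE transcript was used. Of the other 4 Egr2 windows, 2 overlap it and hold the same 2 cores and CArG box, 1 holds a CArG box and no core, and 1 holds neither. The core of the cAMP response element, TGACG or CGTCA on either strand, occurred at least 2 times in all 6 windows. Of all 32851 windows, 5.01% held 2 or more. The 6 windows held 60 to 81.7% G or C, the median of all windows was 52.7%, and of the 9690 windows with at least 60% G or C 9.30% held 2 or more. Nr4a1, Nr4a2 and Nr4a3 each held 4 cores, and 4 or more were held by 0.231% of all windows and by 0.557% of those with at least 60% G or C. The full palindrome TGACGTCA, which contains the core on both strands, was found in none of the 6 and in 1.79% of all windows. Among the 6 windows a CArG box stood in that of Egr2 alone, and 1.63% of all windows held at least 1. The 250 bases before the start are shown for 4 of them, Egr2 for its CArG box beside the cores, Nr4a1 and Nr4a3 for their 4 cores and Npas4 as the one of the 9 genes with the largest log2 fold change of neurons against glia after kainate. The RefSeq start equals that of the principal GENCODE transcript in 4 of the 6 genes. It lies 152 bases downstream of it in Nr4a3 and 345 in Npas4, so part of the Nr4a3 stretch and all of the Npas4 stretch lie within the GENCODE gene. The Egr2 and Nr4a1 stretches also lie wholly within their GENCODE genes, whose spans begin further upstream, at 67535475 and 101254269. Capitals mark the cores and the CArG box.
Egr2 (chr10:67537619-67537868, plus strand): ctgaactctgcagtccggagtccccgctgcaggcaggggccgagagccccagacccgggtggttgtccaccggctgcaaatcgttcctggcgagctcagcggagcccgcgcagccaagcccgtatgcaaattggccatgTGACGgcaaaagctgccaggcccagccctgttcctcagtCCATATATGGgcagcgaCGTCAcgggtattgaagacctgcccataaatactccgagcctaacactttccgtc
Nr4a1 (chr15:101266596-101266845, plus strand): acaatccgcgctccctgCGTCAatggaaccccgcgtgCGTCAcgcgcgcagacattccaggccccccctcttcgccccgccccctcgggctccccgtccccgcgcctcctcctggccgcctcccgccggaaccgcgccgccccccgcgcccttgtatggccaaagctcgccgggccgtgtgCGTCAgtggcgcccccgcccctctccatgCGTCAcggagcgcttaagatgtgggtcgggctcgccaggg
Nr4a3 (chr4:48045055-48045304, plus strand): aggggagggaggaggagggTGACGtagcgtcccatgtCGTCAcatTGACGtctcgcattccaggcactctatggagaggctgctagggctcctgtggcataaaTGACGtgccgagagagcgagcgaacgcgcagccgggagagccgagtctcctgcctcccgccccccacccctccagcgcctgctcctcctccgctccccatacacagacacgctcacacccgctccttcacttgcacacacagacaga
Npas4 (chr19:4989972-4990221, minus strand): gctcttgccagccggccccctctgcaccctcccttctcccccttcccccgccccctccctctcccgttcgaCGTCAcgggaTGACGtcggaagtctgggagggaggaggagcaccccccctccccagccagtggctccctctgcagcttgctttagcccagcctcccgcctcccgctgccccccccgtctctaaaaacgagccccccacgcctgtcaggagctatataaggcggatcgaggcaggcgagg
In Egr2, the CArG box CCATATATGG lay at -72 to -63 from the RefSeq start, between cores at -111 to -107 and -55 to -51. The cores of Npas4 lay at -179 to -175 and -169 to -165, and the 4 of Nr4a1 were spread from -233 to -36. These matches describe the letters of the windows and do not show that a factor is bound there.

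Total counts were 19391118 to 45428465 in kainate neurons, 21282859 to 34995607 in sham neurons, 18471055 to 24732499 in kainate glia, and 20545699 and 12058875 in sham glia. Replicate 2 of kainate glia and replicate 1 of sham glia had low input, about 0.05 ng of RNA amplified over 15 PCR cycles, where 1 ng and 10 cycles were used otherwise. The median normalized CPM over all tested genes was 1.01 to 1.97 in 9 libraries, and 2.59 and 2.53 in replicate 3 of kainate and of sham glia. Neuron markers (Rbfox3, Snap25, Syt1, Slc17a7, Gad1 and Gad2) summed to 2835 to 6646 CPM in neurons and 465 to 745 in glia. None of the 38 tested markers of 8 cell types was called between kainate and sham in neurons or glia. A fit with a block for the replicate number called 7 higher and 4 lower in kainate neurons, and 2 higher and 11 lower in kainate glia. Of all genes, this fit called 3.19% higher and 1.90% lower in neurons, and 2.93% higher and 2.86% lower in glia. In kainate neurons the 7 higher were the astrocyte markers Gfap, Aqp4, Slc1a2 and Aldh1l1, the microglia marker Csf1r and the neuron markers Gad1 and Gad2, and the 4 lower were Gja1, Slc1a3, P2ry12 and Mog. Gfap was at 79.2 ± 43.6 CPM in kainate and 21.2 ± 2.96 in sham neurons (SD, n = 3 each). In kainate glia the 2 higher were Gfap, at 581 ± 290.4 CPM against 160 ± 102 in sham glia (n = 3 and 2), and Gad1, and the 11 lower were 3 of 5 for oligodendrocytes, all 3 for their precursors, 3 of 6 for astrocytes and 2 of 6 for microglia. The oligodendrocyte markers summed to 4631, 11065 and 25861 CPM in kainate glia and to 8319 and 36814 in sham glia, and the astrocyte markers to 625 to 3126 and to 1047 and 3999. The microglia markers summed to 651 to 1877 CPM in kainate glia and to 656 and 3561 in sham glia. Markers of endothelial cells, pericytes and leukocytes summed to at most 45.5, 62.7 and 18.1 CPM in any glia library, with the leukocyte marker S100a8 at 0 in 8 of the 11 libraries. The part of these marker differences in the results on neurons and glia was not tested. In such bulk samples, fewer cells of a type and less RNA per cell cannot be told apart.

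All 9 genes had higher mean levels after kainate than after sham in neurons, and all 9 in glia. Levels are given as normalized CPM, that is counts scaled to a common library size after TMM normalization, and genes were called at a false discovery rate (FDR) below 0.25 in edgeR's quasi-likelihood test over all libraries, adjusted over all 40714 genes. In neurons 2 of the 9 were upregulated, Egr2 and Ier2, where 0.157% of all tested genes were called higher. In glia 2 were upregulated, Egr1 and Ier2, where 0.0933% of all genes were called higher. Replicates with the same number tended to vary together in kainate and sham, though weakly in replicate 2 of neurons (r = 0.161). With that number as a block all 9 were called in neurons (3.19% of all genes called higher) and 7 in glia (2.93%), the exceptions being Nr4a1 and Nr4a3. The block was chosen from these same data. Replicate 2 of kainate glia has no sham partner, so the effect in glia then rests on 2 pairs. DESeq2's Wald test called 6 in neurons (0.717% of all genes called higher) and 5 in glia (0.469%). Among genes with an Entrez Gene ID, edgeR called 5 in neurons (0.864% of the genes tested called higher) and 5 in glia (0.355%), a fit of the neurons alone called 6 (1.07%), and a fit of the glia alone called 0 of the 9 and 0% of all genes. The median log2 fold change of the 9 genes was 1.85 in neurons and 2.20 in glia, and that of all tested genes was -0.015 and 0.023. The kainate libraries all exceeded the sham libraries for 4 of the 9 genes in neurons (4.26% of all genes) and for 7 of the 9 in glia (4.70%). The test of the difference between the effects in neurons and glia called 0 of the 9 by edgeR, where 0.00246% of all genes were called in either direction, and 0 by DESeq2. At an unadjusted p below 0.05 it gave 1 of the 9, Egr1, with the smaller effect in neurons (0.462% of all genes in that direction). The comparisons use the same 11 libraries and are not independent of each other.

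**Figure D1:**
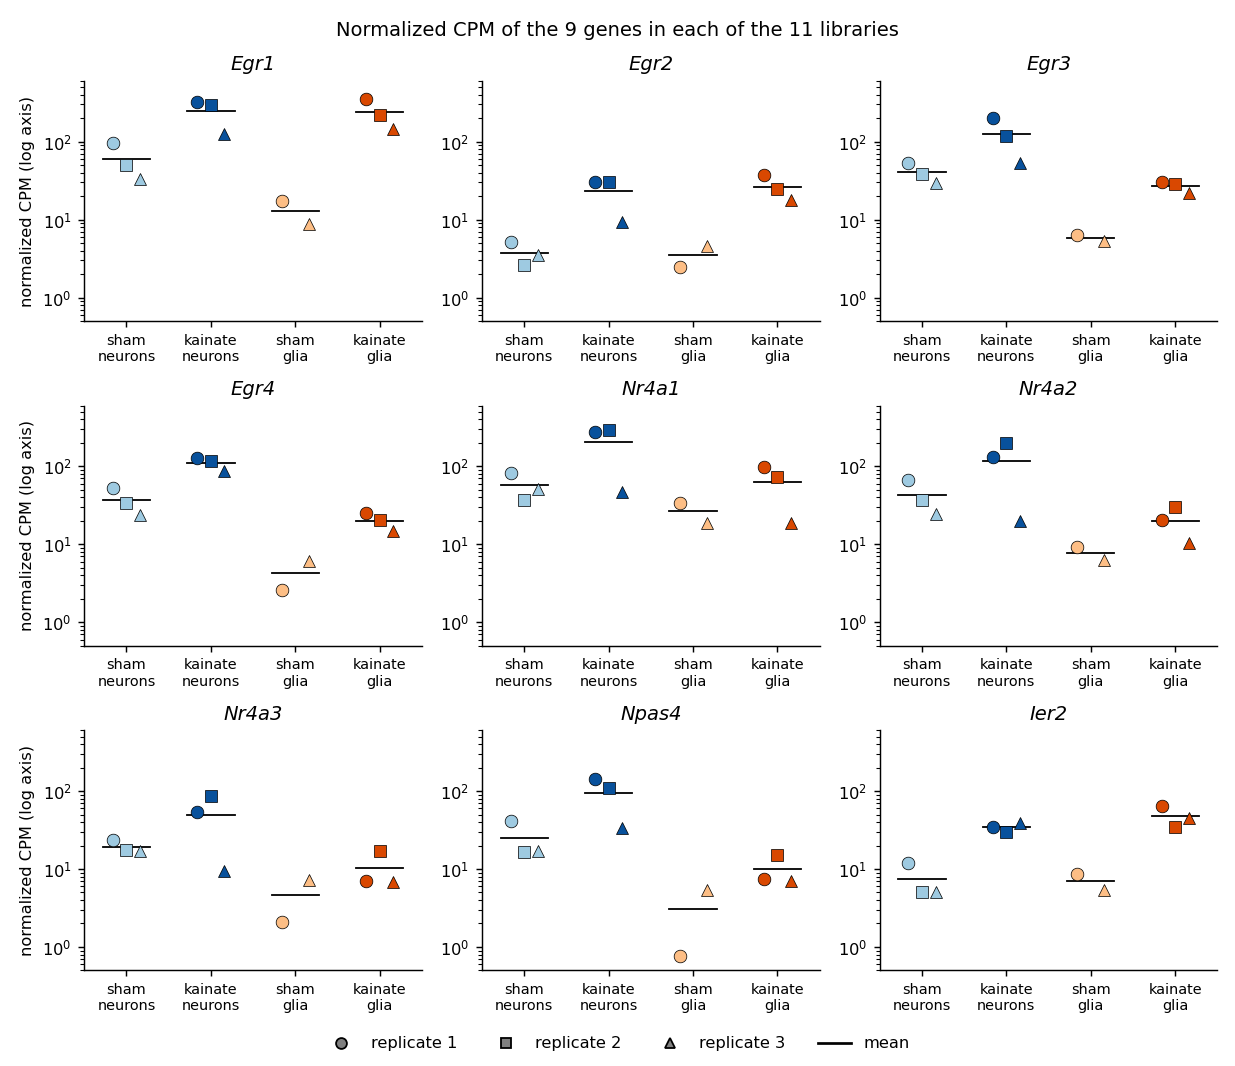
Normalized CPM on a log axis of the 9 genes in the 11 libraries, by group, with the replicate as the symbol and the group mean as a line. The mean levels of Egr1, Egr2 and Ier2 in kainate glia were 96.1 to 138% of those in kainate neurons, while Egr3, Egr4, Nr4a2 and Npas4 were lower in glia in both treatments.

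Egr1 (ENSMUSG00000038418, mm10 chromosome 18, 34859823 to 34864984, plus strand) encodes the most studied EGR factor, also known as Zif268. Its normalized CPM was 326, 299 and 124 in the kainate neurons of replicates 1, 2 and 3 and 97.0, 49.9 and 33.0 in the sham neurons, so the groups did not overlap. In glia it was 355, 218 and 147 after kainate, and 17.1 and 8.78 in sham replicates 1 and 3. The kainate glia thus stood far above both sham glia and at the height of kainate neurons. The log2 fold change was 4.21 in glia (standard error 0.69, FDR = 0.0815) and 2.06 in neurons (standard error 0.52, FDR = 0.438, and 1.02e-11 with the block). The difference between the effects, neurons minus glia, was -2.15 (standard error 0.78, unadjusted p = 0.0155 by edgeR), with an FDR of 1. With the block it was -2.14 (standard error 0.30, FDR = 7.47e-06), a fit in which 0.702% of all genes were called with a smaller effect in neurons. In that fit the effect in glia rests on replicates 1 and 3, and less is left to estimate the spread from. Egr1 in glia was not called without replicate 2 of kainate glia, nor without replicate 1 of sham glia (FDR = 0.326). Without both of these low-input libraries its log2 fold change in glia was 4.86 (standard error 0.98, FDR = 0.615), and in the fit of the glia alone it was 4.25 (standard error 0.78, FDR = 0.711).

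Egr2 (ENSMUSG00000037868, chromosome 10, 67535475 to 67542188, plus strand), the EGR factor best known from Schwann cell myelination, was the lowest of the family in neurons. It measured 29.9, 30.4 and 9.46 CPM in kainate neurons against 5.17, 2.58 and 3.55 in sham neurons. In glia the values were 37.1, 24.5 and 17.9 after kainate and 2.49 and 4.56 in sham. Neither comparison had overlapping groups, although replicate 3 of kainate neurons lay closest to the sham libraries. The log2 fold change was 2.63 in neurons (standard error 0.51, FDR = 0.153) and 2.90 in glia (standard error 0.60, FDR = 0.267, and 4.99e-07 with the block). Its call in neurons was lost without replicate 1 or 2 of kainate neurons, replicate 2 or 3 of sham neurons or replicate 2 of kainate glia.

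Egr3 (ENSMUSG00000033730, chromosome 14, 70077203 to 70082614, plus strand) is known from the development of muscle spindles. It had 201, 119 and 52.9 CPM in kainate neurons and 54.0, 38.8 and 29.8 in sham neurons. The groups overlapped only through replicate 3 of kainate neurons, which lay just under replicate 1 of sham neurons. Egr4 (ENSMUSG00000071341, chromosome 6, 85511121 to 85513589, minus strand), whose protein lacks the NAB-binding domain of its relatives, had 127, 116 and 87.0 CPM in kainate neurons and 53.2, 33.7 and 23.9 in sham neurons. In glia, Egr3 went from 6.39 and 5.26 CPM in sham to 30.4, 28.4 and 21.8 after kainate. Egr4 in glia was at 2.62 and 6.05 CPM in sham and at 24.96, 20.4 and 14.8 after kainate. The glia groups overlapped for neither gene. The log2 fold changes in neurons were 1.61 for Egr3 (standard error 0.44) and 1.57 for Egr4 (standard error 0.41), with FDRs of 0.596 and 0.471, and in glia 2.21 (standard error 0.53) and 2.20 (standard error 0.49), with FDRs of 0.558 and 0.418. Each of these 4 was called with the block, with FDRs from 6.29e-08 to 1.25e-06. The test of the difference between the cell types gave -0.60 (standard error 0.65) for Egr3 and -0.63 (standard error 0.61) for Egr4, with an FDR of 1 for both, and the block called neither. Over the 8 genes other than Egr1 this difference ranged from -0.63 to 0.60 with standard errors of 0.61 to 0.98, so it was not called, and these errors leave room for differences in either direction.

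For the 3 Nr4a genes, replicate 3 of kainate neurons fell among or below the sham neurons, as it fell among them for Egr3 and Npas4. Nr4a1 (ENSMUSG00000023034, chromosome 15, 101254269 to 101274795, plus strand), also known as Nur77, had 277 and 289 CPM in replicates 1 and 2 of kainate neurons and 46.9 in replicate 3, beside 82.8, 36.6 and 51.3 in sham neurons. Nr4a2 (ENSMUSG00000026826, chromosome 2, 57106830 to 57124003, minus strand), also known as Nurr1, had 132, 199 and 19.996 CPM in kainate and 66.7, 37.4 and 24.2 in sham neurons. Nr4a3 (ENSMUSG00000028341, chromosome 4, 48045153 to 48086447, plus strand), also known as Nor1, had 53.4, 86.0 and 9.32 CPM in kainate and 23.4, 17.3 and 17.0 in sham neurons. For Nr4a2 and Nr4a3, replicate 3 of kainate neurons was the lowest of the 6 neuron libraries. The log2 fold changes in neurons were 1.85, 1.46 and 1.37 for Nr4a1, Nr4a2 and Nr4a3, with standard errors of 0.67, 0.66 and 0.66 and FDRs of 1. With the block they were 1.56, 1.06 and 0.93, called with FDRs of 0.000231, 0.00900 and 0.142. Leaving out replicate 3 of kainate neurons raised them to 2.32, 1.96 and 1.86, with FDRs from 0.795 to 1.

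In glia, Nr4a1 was at 97.2, 72.1 and 19.0 CPM after kainate and at 33.9 and 19.0 in sham. Nr4a2 was at 20.3, 29.8 and 10.3 after kainate and at 9.20 and 6.35 in sham, so that only this member of the 3 had every kainate above every sham library. Nr4a3 was at 6.96, 17.2 and 6.77 after kainate and at 2.11 and 7.19 in sham, and replicate 2 of kainate glia, a library of low input, was the one above both sham libraries. The log2 fold changes were 1.24, 1.37 and 1.14, with standard errors of 0.76, 0.76 and 0.76 and FDRs of 1. The block called Nr4a2 (0.92, FDR = 0.135) and neither Nr4a1 (FDR = 0.373) nor Nr4a3 (FDR = 0.638). Without both low-input libraries, Nr4a3 in glia had a log2 fold change of -0.047 (standard error 0.85).

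Npas4 (ENSMUSG00000045903, chromosome 19, 4984355 to 4990316, minus strand) had 142, 110.4 and 33.9 CPM in kainate neurons and 40.9, 16.5 and 17.3 in sham neurons. Replicate 3 of kainate neurons was above 2 of the sham libraries and below the other. In glia it had 7.53, 15.1 and 6.97 CPM after kainate. The sham glia had 0.767 and 5.40 CPM, which rest on 12 and 109 counts. The log2 fold change was 1.94 in neurons (standard error 0.66, FDR = 1, and 2.32e-06 with the block) and 1.66 in glia (standard error 0.78, FDR = 1, and 0.0198 with the block). The value in glia turned on the sham libraries, since it was 3.67 without replicate 3 of sham glia (FDR = 0.228), 0.90 without replicate 1 (FDR = 0.980) and 0.44 without both low-input libraries. Replicate 3 of sham glia was also the library with a median CPM over all genes of 2.53 against 1.02 in replicate 1, and the part of this in the result was not tested.

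Ier2 (ENSMUSG00000053560, chromosome 8, 84661331 to 84662852, minus strand), a gene without introns, was called in both cell types. It had 35.0, 29.5 and 39.5 CPM in kainate neurons and 12.1, 5.02 and 5.06 in sham neurons. In glia it had 64.0, 34.1 and 45.1 CPM after kainate and 8.75 and 5.40 in sham. The groups were apart in both, and replicate 3 of kainate neurons was the highest neuron library, whereas for each of the other 8 genes it was the lowest of the 3 kainate neuron libraries. The log2 fold change was 2.24 in neurons (standard error 0.43, FDR = 0.150) and 2.75 in glia (standard error 0.51, FDR = 0.142). The call in neurons was lost in 6 of 11 fits that left out 1 library, namely without any library of kainate neurons, without replicate 2 or 3 of sham neurons and without replicate 2 of kainate glia. The call in glia was lost in 4 of 11, without replicate 2 of kainate neurons, replicate 1 or 2 of kainate glia or replicate 1 of sham glia. It was lost too without both low-input libraries (3.36, standard error 0.72, FDR = 0.675) and in the fit of the glia alone (2.79, standard error 0.53, FDR = 0.711). The test of the difference between the cell types gave -0.52 (standard error 0.62, FDR = 1).

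**Figure D2:**
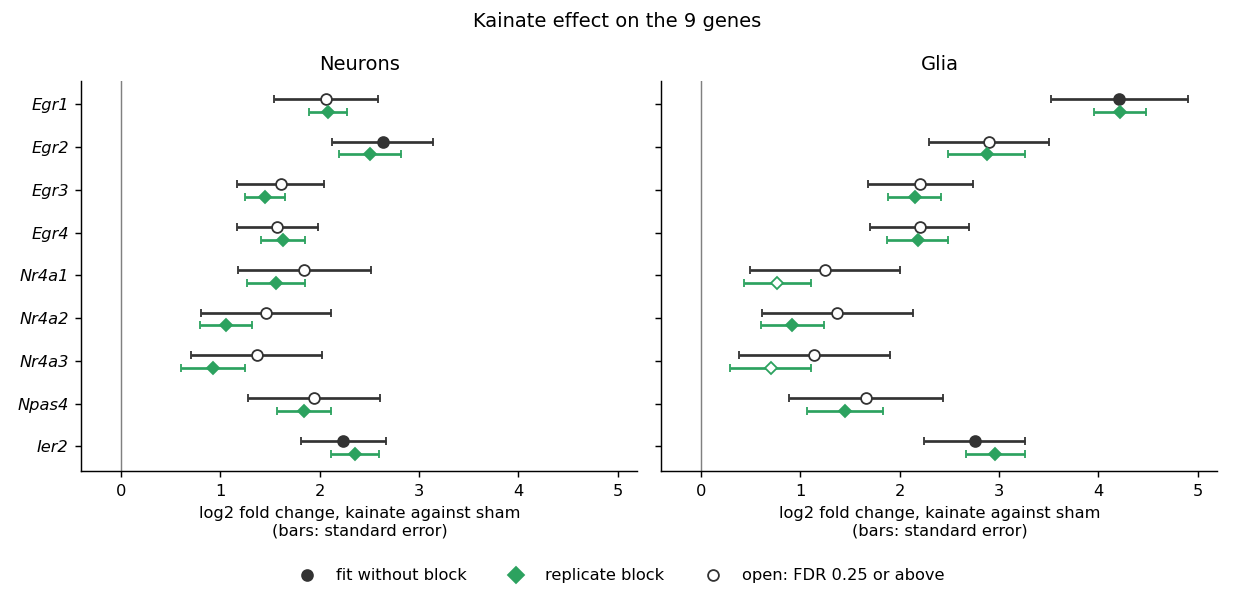
Log2 fold change of kainate against sham with its standard error for the 9 genes in neurons (left) and glia (right), without (circles) and with (diamonds) the replicate block, filled where the FDR was below 0.25. Egr1 in glia stands at 4.21, and the block narrows the standard errors of all 9 genes.

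Compared by replicate number, the kainate library exceeded the sham library for all 9 genes in replicates 1 and 2 of neurons and for 6 of 9 in replicate 3. The median ratio was 3.34, 5.86 and 1.96 in these 3 pairs. In replicate 3 of neurons the ratio was 0.915 for Nr4a1, 0.827 for Nr4a2 and 0.548 for Nr4a3, and at the other end it was 3.65 for Egr4, 3.76 for Egr1 and 7.80 for Ier2. In glia all 9 genes exceeded the sham library in replicate 1, with a median ratio of 7.31, and 7 of 9 did in replicate 3, with a median of 2.44. Nr4a1 and Nr4a3 were the exceptions, at 0.999 and 0.942, while Egr1 reached 16.8. The neurons and glia of a pool come from the same mice. In the kainate pool of replicate 3, 8 of the 9 genes in neurons and all 9 in glia lay below the mean of their group on the log2 scale. Replicates 2 and 3 of sham neurons, from other mice, also had all 9 genes below their group mean. In replicate 3 of sham glia 5 of the 9 were below it.

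**Figure D3:**
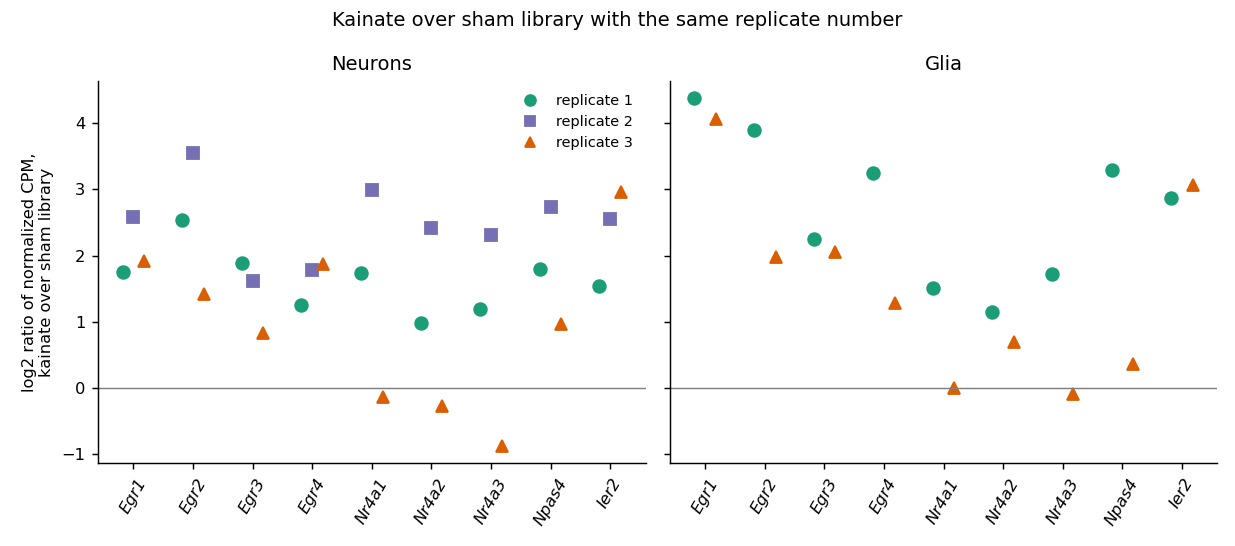
Log2 ratio of normalized CPM of the kainate over the sham library with the same replicate number, for the 9 genes in neurons (3 pairs) and glia (2 pairs). In replicate 3 of neurons the Nr4a genes lie below 0, with ratios of 0.548 to 0.915, and Ier2 is at a ratio of 7.80.

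Neurons were next compared with glia within each treatment. In sham, 6 of the 9 genes were higher in neurons, where 9.11% of all genes were called higher, and after kainate 6 were higher too, where 11.3% were. Egr3, Egr4, Nr4a2, Nr4a3 and Npas4 were called in both treatments. Their log2 fold changes of neurons against glia were 2.81, 3.08, 2.46, 2.04 and 2.99 in sham (FDR = 0.00488, 0.00228, 0.0804, 0.163 and 0.0357) and 2.21, 2.45, 2.54, 2.26 and 3.27 after kainate (FDR = 0.00548, 0.00211, 0.0278, 0.0498 and 0.00748). The neuron libraries all exceeded the glia libraries for 7 of the 9 genes in sham (14.4% of all genes), Egr2 and Ier2 being the others, and for Egr3, Egr4 and Npas4 after kainate (14.8%). Replicate 3 of kainate neurons, with its low Nr4a values, lay within the range of kainate glia for Nr4a1, Nr4a2 and Nr4a3. The calls of Nr4a3 were lost without replicate 1 of sham neurons, replicate 3 of kainate glia or replicate 1 of sham glia in the sham comparison, and without replicate 2 of kainate neurons after kainate.

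Egr1 was higher in neurons in sham (log2 fold change 2.21, standard error 0.62, FDR = 0.0385) and not called after kainate (0.058, standard error 0.50, FDR = 0.952). Nr4a1 was called after kainate (1.70, standard error 0.66, FDR = 0.148), a call lost without replicate 1 or 2 of kainate neurons or replicate 2 or 3 of kainate glia (FDR up to 0.427), and in sham it was called with the pool as a block (1.36, FDR = 0.00483), a fit in which 18.3% of all genes were called higher in sham and 21.4% after kainate, and not without (1.10, FDR = 0.546). The log2 fold changes of neurons against glia were 0.081 in sham and -0.19 after kainate for Egr2, and 0.055 and -0.46 for Ier2, and none of these was called. The sham values of both fell below 0 with DESeq2's size factors. With the pool as a block, Ier2 was called lower in neurons after kainate (-0.42, standard error 0.23, FDR = 0.218), where 27.9% of all genes were. The mean of glia as a share of the mean of neurons gives the same order in other units. In sham it was 11.7% for Egr4, 12.4% for Npas4, 14.3% for Egr3, 18.2% for Nr4a2, 21.6% for Egr1, 24.1% for Nr4a3, 46.6% for Nr4a1, 93.6% for Egr2 and 95.8% for Ier2. After kainate it was 10.3% for Npas4, 17.2% for Nr4a2, 18.3% for Egr4, 20.8% for Nr4a3, 21.6% for Egr3, 30.7% for Nr4a1, 96.1% for Egr1, 114% for Egr2 and 138% for Ier2. The summed neuron markers stood at 12.9% in sham and 14.1% after kainate. The part of neuronal RNA in the glia values was not tested for any of the 9 genes.

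Levels of different genes were compared as CPM per kb of exon (exon union of GENCODE M21, mm10). In sham neurons the order of the mean levels per kb was Egr4 (17.2 ± 6.95, SD, n = 3), Nr4a1 (16.2 ± 6.72), Egr1 (13.4 ± 7.40), Nr4a2 (10.5 ± 5.36), Egr3 (9.27 ± 2.78), Npas4 (6.02 ± 3.35), Ier2 (4.86 ± 2.67), Nr4a3 (3.22 ± 0.605) and Egr2 (1.11 ± 0.385). Neighbours in this order differed by less than the larger of their SDs in 7 of 8 cases, and Egr2 lay below Nr4a3 by more. In kainate neurons it was Nr4a1 (58.2 ± 38.9, n = 3), Egr1 (55.7 ± 24.5), Egr4 (51.1 ± 9.51), Nr4a2 (28.9 ± 22.3), Egr3 (28.2 ± 16.8), Npas4 (23.1 ± 13.4), Ier2 (22.8 ± 3.29), Nr4a3 (8.28 ± 6.42) and Egr2 (6.84 ± 3.52). Here again 7 of 8 neighbours differed by less than the larger SD, and Nr4a3 lay below Ier2 by more. In sham glia Nr4a1 (7.55 ± 3.00, n = 2), Ier2 (4.65 ± 1.56) and Egr1 (2.89 ± 1.32) led, and Nr4a3 (0.777 ± 0.600) and Npas4 (0.746 ± 0.793) were last. Here 6 of 8 neighbours differed by less than the larger SD, among them these last 2. In kainate glia Egr1 led with 53.5 ± 23.5 CPM per kb (n = 3), followed by Ier2 (31.4 ± 9.95) and Nr4a1 (17.9 ± 11.4), and Npas4 (2.39 ± 1.10) and Nr4a3 (1.72 ± 0.994) were again last. In kainate glia 6 of 8 neighbours differed by less than the larger SD, the others being Ier2 above Nr4a1 and Nr4a2 above Npas4.

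Within the EGR family, the shares of all 4 genes in neurons and glia did not overlap after kainate. Egr1 took 28.0 to 36.0% of the family's CPM per kb in sham neurons and 33.4 to 42.6% in kainate neurons, and Egr4 took 41.1 to 43.1% and 31.7 to 48.8%, so that Egr4 exceeded Egr1 in all 3 sham neuron libraries and the ranges overlapped in kainate neurons. In kainate glia Egr1 took 65.7 to 72.9%, above the other 8 libraries, and Egr4 took 10.7 to 13.8%. The sham glia held 52.9 and 26.8% for Egr1 and 16.9 and 38.5% for Egr4 in replicates 1 and 3, so the 2 libraries of this group lay far apart, replicate 3 being near the sham neurons. Egr2 made up 10.0 to 10.6% in kainate glia and 3.35 to 5.71% in kainate neurons, and Egr3 made up 6.35 to 9.93% and 14.5 to 24.5%. In the NR4A family Nr4a1 held the largest share in each of the 11 libraries, from 46.3 to 81.8%, and Nr4a3 the smallest, from 2.87 to 14.7%. Shares of a family add up to a whole, so the rise of one gene lowers the others, and these are descriptions without a test.

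**Figure D4:**
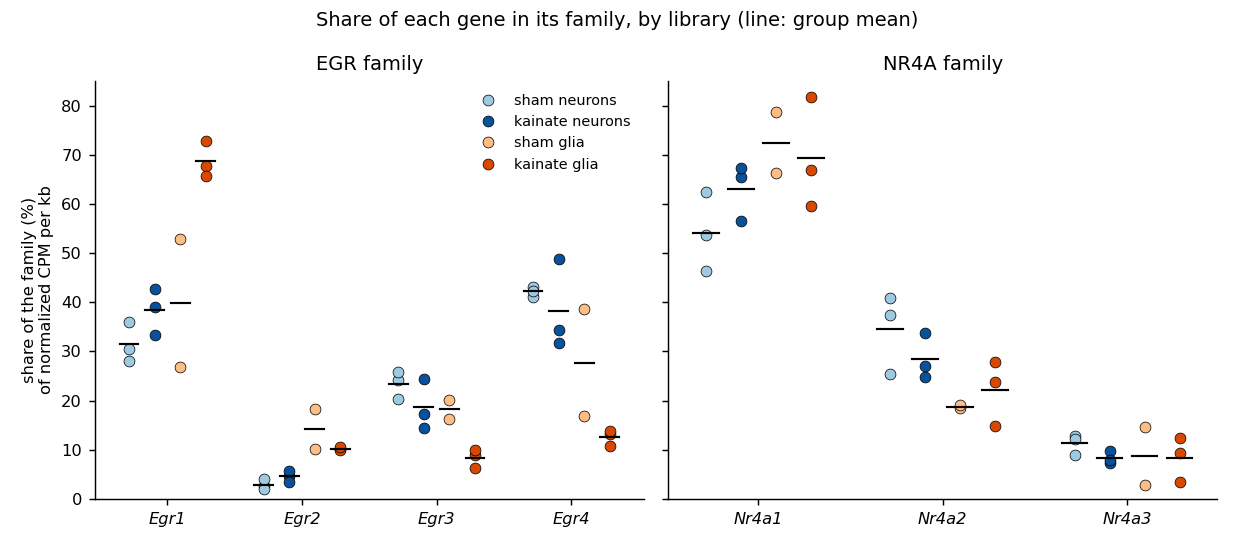
Share in percent of each gene in the CPM per kb of the EGR family (left) and NR4A family (right), as a point per library with the group mean as a line. Egr1 makes up 65.7 to 72.9% of the EGR family in kainate glia and 26.8 to 52.9% in the other groups.

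Other genes were ranked by how closely they followed the mean standardized log2 CPM of the 9 genes over the 11 libraries, among 24713 genes with a mean CPM of at least 1. The 5 closest were Fosl2 (Pearson r = 0.992), Dusp5 (0.965), Noct (0.948), Uck2 (0.936) and Cbln4 (0.936). Fosl2 encodes an AP-1 subunit and Dusp5 a phosphatase of nuclear ERK. The 11 libraries share pools and fall into 4 groups, so these values describe the likeness only. Fosl2 was at 75.2 ± 36.9 CPM in kainate neurons, 24.7 ± 8.28 in sham neurons, 31.9 ± 12.3 in kainate glia (n = 3 each) and 8.14 ± 1.67 in sham glia (n = 2).

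The genes that act around the 9 were taken as 7 lists of 58 genes, all of which were tested. The factors that drive the 9 genes were not called. None of 6 genes for SRF and its ternary complex factors was called in either cell type, with median log2 fold changes of -0.29 in neurons and 0.14 in glia, and Srf itself was at 0.40 and 0.52. None of 11 CREB and MEF2 factors and coactivators was called (medians -0.032 and 0.13). Crem, which encodes the inducible repressor ICER among its products, was at 0.60 in neurons (standard error 0.33) and 0.75 in glia (standard error 0.37). The partners of the proteins were not called either. Of 4 EGR cofactors and relatives (medians 0.29 and 0.19), the corepressor gene Nab2 was at 0.034 in neurons and 1.03 in glia (standard error 0.38), where the block called it (FDR = 0.0438). Of 6 dimer partners of NPAS4 and the NR4A proteins (medians -0.064 and -0.28), Arnt2 was at 0.61 in neurons, called with the block (FDR = 0.0558). The block also called Mrtfb lower in neurons (FDR = 0.148), Elk1 lower in glia (FDR = 0.200) and Crem higher in glia (FDR = 0.200).

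Genes that are induced along with the 9 were taken next. Of the 3 other IER genes, Ier5l was called in glia (log2 fold change 2.94, standard error 0.55, FDR = 0.142), and the median over the list was 1.23 in neurons and 2.43 in glia. The block called all 3 in both cell types. Of 22 other rapidly induced genes, 8 were upregulated in neurons, namely Fos, Fosb, Atf3, Csrnp1, Zfp36, Arc, Nptx2 and Sik1, with a median over the list of 1.78. In glia 4 were upregulated, namely Fos, Junb, Atf3 and Myc, with a median of 2.09. These counts stand beside 0.157% and 0.0933% of all genes called higher in neurons and glia. The block called 19 of the 22 in neurons and 20 in glia (3.19% and 2.93% of all genes). Nptx2, which encodes a secreted pentraxin of excitatory synapses, was at 3.46 in neurons (standard error 0.53, FDR = 0.0566), and Fos in glia at 5.67 (standard error 0.80, FDR = 0.0763). Of 6 genes for MAP kinases and their phosphatases none was called (medians 1.07 and 0.64). Dusp5 was at 1.75 in neurons and 2.13 in glia and Dusp1 at 1.14 and 1.96, and the block called all 4 of these. Over the list the block called 4 genes higher and 1 lower in neurons, and 3 higher and 0 lower in glia. Mapk3, the gene of ERK1, was at -0.92 in neurons (standard error 0.53), called lower with the block (FDR = 0.000650). In the test of the difference between the effects in neurons and glia, the block called 7 of the 58 genes with the smaller effect in neurons (0.702% of all genes), as it did Egr1, namely Fos (-2.41, FDR = 5.23e-05), Ier5l (-1.84, FDR = 0.000978), Junb (-1.93, FDR = 0.00134), Myc, Maff, Fosl1 and Ier3. Arnt2 and Dusp6 were called with the larger effect in neurons (1.23% of all genes in that direction), and without the block the FDR was 1 for each of these 9 related genes.

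**Figure D5:**
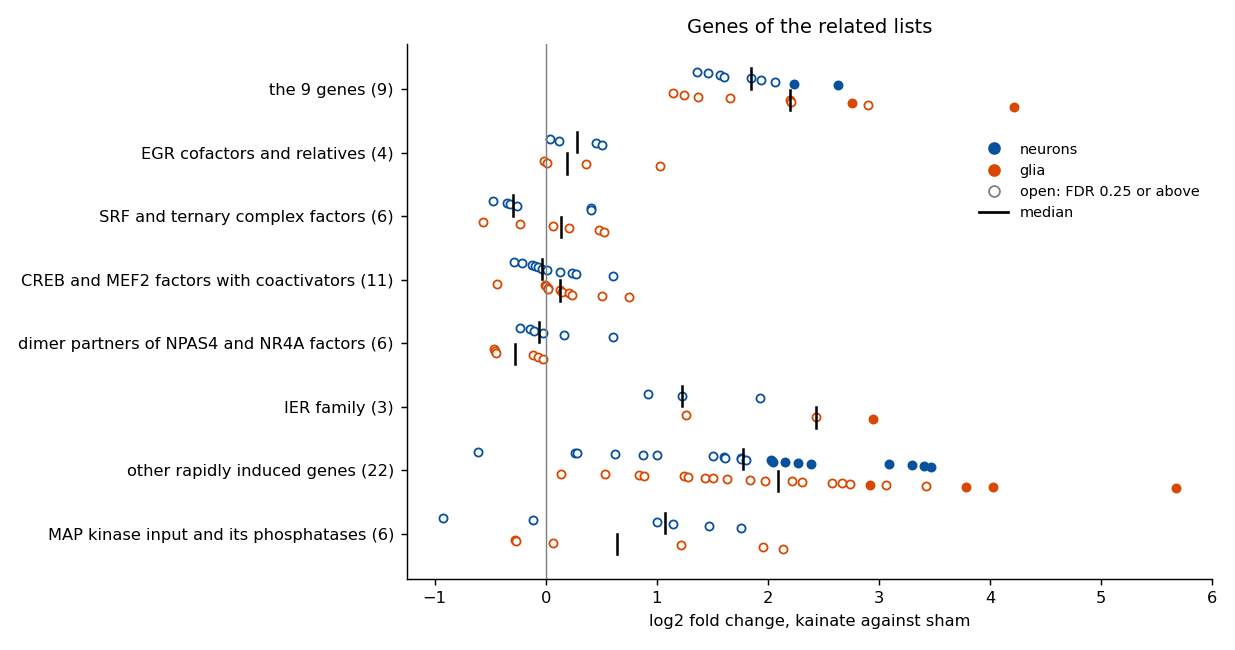
Log2 fold change of kainate against sham for each gene of the 7 related lists and for the 9 genes themselves, in neurons and glia, filled where the FDR was below 0.25, with the median as a line. The medians of the 9 genes (1.85 and 2.20) and of the other rapidly induced genes (1.78 and 2.09) lie far from 0, and those of the SRF, CREB and dimer partner lists lie between -0.29 and 0.14.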

How the data were processed

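The authors trimmed the reads (Trim Galore 0.4.3 per the labels), aligned them to mm10 with Rsubread and assigned the uniquely mapped ones to GENCODE M16 genes with featureCounts. The count table they deposited holds 53379 genes and 11 libraries, without normalization. Whether strand was used is not given in the sources used here, and no exon of the 9 genes overlaps another gene's in GENCODE M21. The methylation samples were not used here.

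Rows with no gene symbol (105) were dropped, and filterByExpr (minimum count 10, minimum total 15) kept 40714. One quasi-likelihood model (edgeR 4.0.16, R 4.3.3, legacy fit) was fitted to 4 group means after TMM scaling, with p-values adjusted by the Benjamini-Hochberg method over all genes and calls at FDR below 0.25. The standard error is the log2 fold change divided by the root of F. Log2 CPM used a prior count of 2. The pools were separate mice. Without the block, p-values rest on the spread between libraries within groups, taken over the 4 groups. That fit treats the neurons and glia of a pool as independent, although they are from the same mice. With a block, p-values rest on the spread left after the block. After group means were removed, kainate and sham libraries with one number correlated by 0.643, 0.161 and 0.491 in neurons and by 0.760 and 0.787 in glia. Neurons and glia of one pool, which are from the same mice, correlated by 0.240 to 0.668. With 2 sham glia libraries, each is the mirror of the other once centred. The glia values therefore turn to -0.760 and -0.787 with the other sham library and are not separate support. The numbers were taken to pair the samples from these same data, although kainate and sham pools of one number are different mice. Not every library correlated best with its own number, since replicate 2 of kainate neurons had 0.166 with replicate 3 of sham neurons, and replicate 3 had 0.418 with replicate 2. The block was the number within a cell type, or the pool for neurons against glia. Replicate 2 of kainate glia has no sham partner, so with the block the kainate effect in glia rests on replicates 1 and 3. The fit without block had 7 residual degrees of freedom to estimate the spread, and the block leaves fewer. Alternatives were DESeq2 1.42.0, its size factors, other filters and thresholds, and leaving libraries out.

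The 9 genes were named in every comparison, and those of the lists where called or for their role. The members, the 7 related lists and the 8 marker lists were chosen with earlier results of these data known, so no list is independent evidence. Motifs were searched on both strands of the RefSeq windows. Reads carry no molecular identifiers, and the number of pools limits the precision.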

Additional observations from a re-analysis of the deposited data

Results flagged for a closer look

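The kainate effect on Egr1 differed between the cell types in the fit with the replicate block, by -2.14 on the log2 scale (neurons minus glia, standard error 0.30, FDR = 7.47e-06). Without the block the difference was -2.15 with an FDR of 1. The block was chosen from these data, and it leaves 2 pairs for the effect in glia and less to estimate the spread from. The ratio of kainate over sham was 20.7 and 16.8 in the 2 pairs of glia, and in neurons it was 3.36, 5.99 and 3.76, so the glia pairs lay above every neuron pair. None of the other 8 genes was called in this test, with or without the block. The block also called 7 of the 58 related genes, Fos, Junb and Ier5l among them, in the direction of Egr1 and 2, Arnt2 and Dusp6, in the other. Of the 38 tested cell type markers it called 7, all with the larger effect in neurons (1.23% of all genes in that direction). The part of these marker differences in the Egr1 result was not tested.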

How the results depend on the processing

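Without the block, the 9 genes gave 2 calls in neurons, 2 in glia, 0 in the test of the difference, and 6 and 6 for neurons against glia in sham and after kainate. With the replicate block there were 9 calls in neurons, 7 in glia and 1 for the difference, and the pool block gave 7 and 7 for neurons against glia, 1 of the latter (Ier2) being lower in neurons. DESeq2's Wald test called 6 in neurons and 5 in glia, the genes with an Entrez Gene ID gave 5 and 5, and FDR below 0.05 gave 0 and 0. A separate fit per cell type gave 6 in neurons and 0 in glia, and leaving out both low-input libraries gave 0 in glia. Leaving out 1 library gave 0 to 4 calls in neurons, 0 to 6 in glia, 0 for the difference, 5 to 6 in sham and 4 to 6 after kainate. A lone sham glia library is taken to vary like the other groups. Of 873 values of single genes in single comparisons under the alternatives, 38 changed sign, none of them called in that comparison without the block. Values called there lost their call in 37 cases, the stricter threshold included. Values that changed sign were -0.047 for Nr4a3 in glia, 0.023 for the difference of Egr2 and -0.25 for Egr2 in sham without both low-input libraries. For neurons against glia in sham, DESeq2's size factors gave -0.00980 for Egr2 and -0.0553 for Ier2, the Wald test -0.00956 and -0.0563, and Entrez genes -0.098 and -0.0867. After kainate, Entrez genes gave -0.019 for Egr1. With 1 library left out, the difference of the effects ranged from -0.76 to 0.11 for Egr2, -0.54 to 0.58 for Nr4a2, -0.91 to 0.82 for Nr4a3, -1.73 to 1.05 for Npas4 and -0.93 to 0.025 for Ier2. Neurons against glia ranged from -0.26 to 0.58 for Egr2 and -0.49 to 0.48 for Ier2 in sham, and from -0.36 to 0.46 for Egr1 and -0.57 to 0.19 for Egr2 after kainate. The cause of these changes was not tested.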
